A study of Homo sapiens with 8 samples.

Results

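The comparison set 2 established human clear cell renal cell carcinoma (ccRCC) lines, 769-P and CAKI-1, against each other in culture that contained the branched-chain amino acids (BCAA) isoleucine, leucine and valine. The members were the libraries labelled as grown with BCAA, 2 per line, which made 4 of the 8 bulk RNA-seq libraries of the series. Of 27776 genes listed for either line, 16602 had a mean of at least 10 normalised reads over the 4 libraries and were tested. 769-P was derived from a primary kidney tumour and CAKI-1 from a skin metastasis of a kidney tumour, and the submitters obtained both from a public cell bank. For 16 h before RNA extraction the medium held 0.38 mM isoleucine, the same concentration of leucine and 0.17 mM valine, and the other 4 libraries came from the same lines after 16 h in medium without these amino acids. The study's methods describe the depleted medium as amino acid-free with dialyzed serum, and whether other amino acids were added back is not given in the sources used here. For routine growth 769-P was kept in RPMI 1640 and CAKI-1 in MEM, both with fetal bovine serum. No transgene, knockdown or drug was used in these libraries. Each arm was a single line, and the deposited values came as 1 table per line, so cell line, prior medium and any separate handling of the tables cannot be told apart. The labels did not say that the 2 libraries of a group came from separate cultures, so the p-values measured only the spread between these samples, which may be technical.

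The ccRCC tumour arises from the epithelium of the renal tubule, mostly the proximal tubule, where cells recover glucose, amino acids and organic ions from the filtrate. PAX8 and PAX2 are transcription factors that build the kidney and mark its tubular epithelium. The usual first lesion of ccRCC is loss of VHL on the short arm of chromosome 3, and VHL marks the hypoxia-inducible factors (HIF) for destruction. BCAA are degraded in mitochondria after a first step of transamination. The study asked how the histone deacetylase HDAC7 and this catabolism act on NOTCH signalling and SNAI1 in renal cancer cells. Its RNA-seq libraries varied only cell line and BCAA.

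The libraries held 64256834 and 55829324 reads on listed genes in 769-P and 40473264 and 47054568 in CAKI-1. In each of the 8 libraries the 10 genes with the most reads held 4.15% to 7.58% of the total. Libraries of the same line differed by a median of 0.1 (769-P) and 0.13 (CAKI-1) on the log2 scale over the tested genes, whereas the lines differed by a median of 0.63. Every gene listed in a table had at least 2 reads over the 4 libraries of its line. Whether all such genes were listed is not given in the sources used here. A gene listed in the other table only was taken as 0 reads, a value that was assumed. Fold differences were computed on log2 of normalised reads plus a pseudocount of 1, which understates the change of low genes. A gene with 0 reads in both libraries of a line was therefore given as a lower bound, with 3 reads per library as the floor. For a gene not listed for that line, the bound holds only if its absence means few reads.

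Defining genes of the labelled cell type were present in part. PAX8, which marks renal epithelium and its carcinomas, had 15729 and 14985 normalised reads in 769-P and 11595 and 13965 in CAKI-1. Normalised values are reads divided by a size factor per library. The keratins KRT8 and KRT18 and the injury marker HAVCR1 were above 1000 normalised reads in both lines. Proximal tubule markers varied. The enzyme GGT1 averaged 14019 normalised reads in 769-P and 3660 in CAKI-1, and the peptidase ANPEP 5348 and 13503. The receptor CUBN averaged 132.5 and 30.95, and the water channel AQP1 70.75 and 0. LRP2, the endocytic receptor megalin, had 9 and 9 reads in 769-P and 0 in CAKI-1, the phosphate transporter SLC34A1 had 9 reads or fewer in every library, and the tubular master regulator HNF4A was at 0 reads in all 4. CA9, the HIF target most often used to stain ccRCC, was not listed. Among other ccRCC markers, VIM averaged 89277 normalised reads in 769-P and 87124 in CAKI-1. EGLN3 averaged 66.59 and 59.26, and NDUFA4L2 1.713 and 128.9. Of 19 markers of immune, endothelial, stromal, hepatic and red blood cells, 11 were listed and 3 were tested. PTPRC of leukocytes (at most 6 reads), PECAM1 of endothelium (at most 12), VWF of endothelium (at most 2) and ALB of hepatocytes (at most 1) were at or near 0 in the 4 libraries. CD79A of B cells had 26 and 23 reads in 769-P and 0 in CAKI-1, and the pericyte genes RGS5 and CSPG4 were the others tested. Of these 3 tested markers, 1 was called higher in 769-P, 1 in CAKI-1 and 1 in neither (median log2 difference -0.88).

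The lines differed widely. By limma with Benjamini-Hochberg adjustment (adjusted p below 0.05 and at least 2-fold), 2567 genes were higher in 769-P, or 15.5% of those tested, and 2864 were higher in CAKI-1, or 17.3%. At 8-fold or more the shares were 4.46% (741 genes) and 6.93% (1150 genes). With no minimum fold, 11587 genes (69.8%) had an adjusted p below 0.05, and for 85.3% of the tested genes the libraries of one line did not overlap those of the other. These shares are the background for each gene group described here, and a group's counts and medians are descriptions, since a gene high in a single line could enter the test through that line. The median log2 difference of all tested genes, 769-P over CAKI-1, was -0.009.

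**Figure D1:**
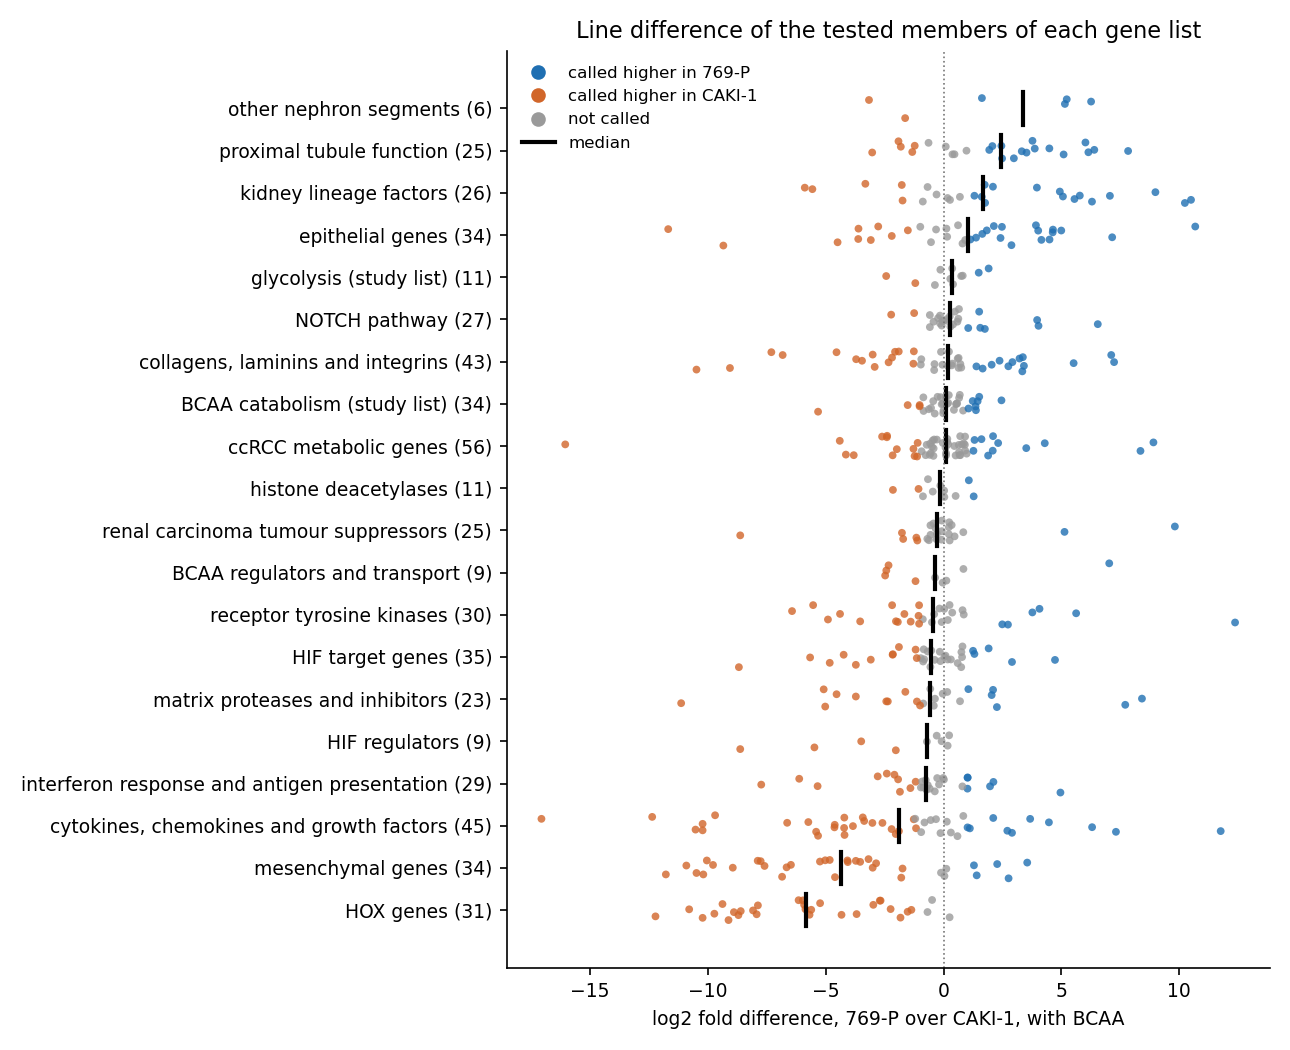
The horizontal axis is the log2 difference with BCAA, 769-P over CAKI-1, and each row is a gene list with the number of its tested genes. Points are genes, coloured where called, and black bars are medians. The HOX list lies furthest to the CAKI-1 side, with a median of -5.86, followed by the mesenchymal list at -4.35. On the 769-P side the list of other nephron segments, with 6 tested genes, has a median of 3.39 and the proximal tubule list has 2.45.

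Kidney lineage transcription factors lay mostly on the 769-P side. Of 35 such factors 32 were listed and 26 tested. Of these, 15 were higher in 769-P, 5 in CAKI-1 and 6 in neither, with a median log2 difference of 1.68. PAX2, the partner of PAX8 in kidney development, had 1203 and 1207 normalised reads in 769-P and 0 reads in both CAKI-1 libraries, at least 332-fold higher. The same was true of POU3F3, a factor of the developing nephron tubule, with 1342 and 1565 against 0 (at least 401-fold). WT1, which acts in nephron progenitors and podocytes, had 1534 and 1444 normalised reads against 32.4 and 29.1, a 47-fold difference (log2 difference 5.55 ± 0.14 SE, limma, Benjamini-Hochberg adjusted p = 2.32e-06).

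Further factors of nephron segments followed the same direction. The log2 difference was 3.96 for IRX3 and 6.30 for IRX5, both of the Iroquois family, 4.93 for SIM1 and 1.74 for HNF4G, a relative of HNF4A. LMX1B, a podocyte factor, was at 51.7 and 56.4 normalised reads against 0 reads. The other direction held GATA3, a factor of the collecting duct and ureteric bud, with 3.13 and 3.52 normalised reads in 769-P and 170 and 246 in CAKI-1 (47.5-fold). It also held EHF, an epithelial ETS factor, with 0 reads in 769-P and 62.2 and 54.8 normalised reads in CAKI-1. PAX8 was not called (log2 difference 0.27 ± 0.09 SE, limma, Benjamini-Hochberg adjusted p = 0.0421). Of the 20 called factors, 17 had the same call without BCAA. MECOM, a chromatin regulator of the distal nephron, was among the others, with a log2 difference of 1.62 with BCAA and 0.43 without.

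**Figure D2:**
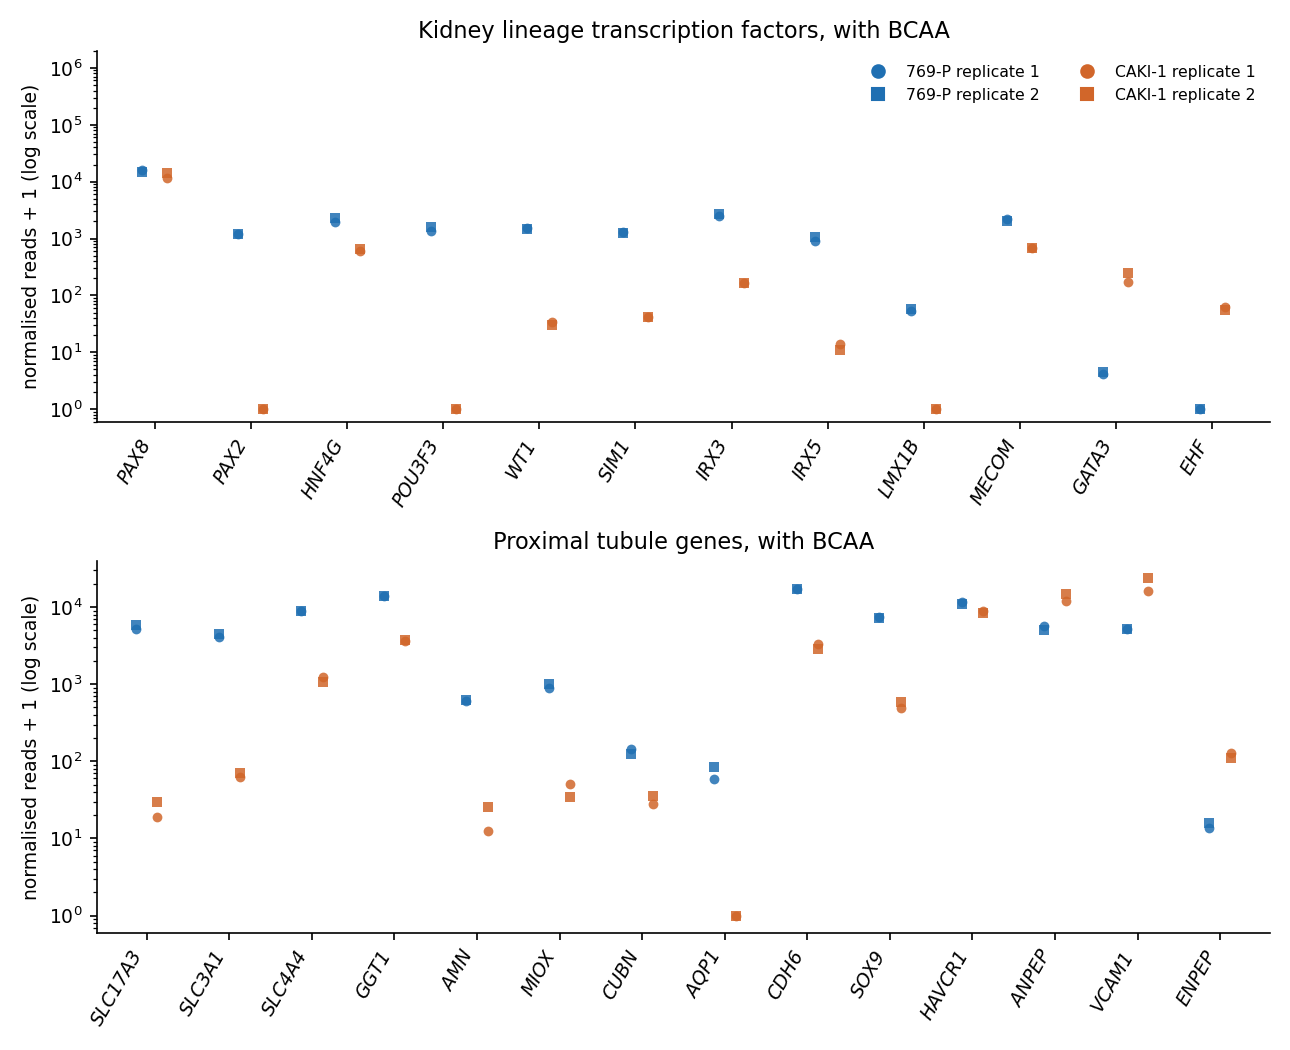
Normalised reads plus 1 (log scale) of kidney lineage transcription factors and of proximal tubule genes in each of the 4 libraries with BCAA, coloured by line. PAX2, POU3F3 and LMX1B sit at 0 reads in both CAKI-1 libraries, GATA3 and EHF are high in CAKI-1, and PAX8 and HAVCR1 are close in both lines.

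Proximal tubule genes showed the same lean. Of 49 genes, 38 were listed and 25 tested, and 15 were higher in 769-P, 5 in CAKI-1 and 5 in neither (median log2 difference 2.45). SLC17A3, an apical organic anion and urate transporter, had 5122 and 5820 normalised reads in 769-P and 18.1 and 29.1 in CAKI-1 (228-fold). SLC3A1, the cystine and dibasic amino acid transporter subunit, had 4131 and 4507 against 60.9 and 70.5 (64.9-fold), and the basolateral bicarbonate transporter SLC4A4 had 8992 and 9004 against 1223 and 1061 (7.9-fold). AMN, the partner of the protein receptor CUBN, differed 34.1-fold and CUBN itself 4.2-fold. MIOX, the enzyme that opens the ring of inositol, differed 22.4-fold, and the water channel AQP1 had 58.7 and 82.8 normalised reads against 0 reads.

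The 5 members on the CAKI-1 side included 2 brush border aminopeptidases. ANPEP, aminopeptidase N, had 5677 and 5019 normalised reads in 769-P and 12144 and 14862 in CAKI-1 (2.52-fold). ENPEP, which cleaves angiotensin, differed 8.18-fold and the adhesion molecule VCAM1 3.77-fold. HAVCR1 was not called, at 11627 and 10847 against 8982 and 8344. In the other nephron segments 6 of 21 genes were tested, 4 higher in 769-P and 2 in CAKI-1, with a median log2 difference of 3.39. CLDN16, a paracellular magnesium channel of the thick ascending limb, was 76.6-fold and the water channel AQP3 37.4-fold higher in 769-P. SCNN1A, a sodium channel subunit of the collecting duct, was higher in CAKI-1 (54.5 and 75 normalised reads against 13.3 and 2.64), a call that was lost when either CAKI-1 library was left out.

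Epithelial genes split in both directions by gene. Of 34 tested, 17 were higher in 769-P, 9 in CAKI-1 and 8 in neither. On the 769-P side, the desmosomal plaque protein DSP had 18062 and 16624 normalised reads against 9.08 and 10.1 (1641-fold), and the tight junction cation channel CLDN2 had 50274 and 53614 against 381 and 347 (142-fold). CLDN4 (15.1-fold), the kidney cadherin CDH16 (25-fold), the protease inhibitor SPINT2 (5.56-fold), KRT8 (3.12-fold) and KRT18 (4.38-fold) were also higher in 769-P. On the CAKI-1 side, KRT19 had 6372 and 7827 normalised reads against 11 and 8.81 in 769-P (652-fold). The adhesion molecule EPCAM was 12.3-fold higher in CAKI-1, with means of 262.3 normalised reads there and 20.4 in 769-P. The adhesion molecule CDH1 was low in both lines and higher in CAKI-1, with 22 and 21.3 normalised reads against 0 reads. The epithelial ETS factor ELF3 was 6.85-fold higher in CAKI-1.

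Mesenchymal genes lay mostly on the CAKI-1 side. Of 40 genes 34 were tested, and 26 were higher in CAKI-1, 5 in 769-P and 3 in neither, with a median log2 difference of -4.35 (-4.08 with genes at 0 reads set to their bound). The 31 called members all had the same call without BCAA. The chain of fibrillar collagen COL1A1 had 184 and 150 normalised reads in 769-P and 193499 and 162480 in CAKI-1 (1062-fold). SPARC, a collagen-binding matrix protein, had 510 and 390 against 228330 and 213857 (494-fold), and fibronectin, FN1, had 104900 and 88199 against 866484 and 886945 (9.11-fold). LUM, a collagen-associated proteoglycan, was at 0 reads in 769-P and at 3361 and 3722 normalised reads in CAKI-1. Fibrillin FBN1 (116-fold), COL5A1 (1435-fold) and the matrix protein TNC (log2 difference -10.20 ± 1.07 SE, with 11 and 0 normalised reads in 769-P) followed.

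Transcription factors of the epithelial-mesenchymal transition differed among themselves. SNAI1, the SNAIL repressor of epithelial genes and a gene the study follows, had 175 and 130 normalised reads in 769-P and 572 and 484 in CAKI-1, 3.48-fold higher in CAKI-1 (log2 difference -1.80 ± 0.19 SE, limma, Benjamini-Hochberg adjusted p = 3.35e-04). Its paralog SNAI2 had 26.6 and 23.8 against 2785 and 2529 (102-fold). TWIST1 was at 0 reads in 769-P and at 908 and 859 normalised reads in CAKI-1, at least 354-fold higher, and ZEB2 was 24.4-fold higher in CAKI-1. ZEB1 overlapped between the lines, with 3186 and 2819 against 2602 and 2941 normalised reads. Vimentin, VIM, also overlapped, at 87185 and 91369 against 86118 and 88130. The cadherin CDH2 (2.44-fold) and smooth muscle actin ACTA2 (11.7-fold), both used as mesenchymal markers, were higher in 769-P.

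The HOX genes, which record position along the body axis, were the list with the largest median difference of the 22 lists examined. Of 39 genes 31 were tested, 28 were higher in CAKI-1, 0 in 769-P and 3 in neither. The median log2 difference was -5.86, or -5.69 with the 14 genes at 0 reads in 769-P set to their bound, and 27 of the 28 calls were the same without BCAA. The HOXB cluster showed the sharpest pattern. HOXB2 to HOXB9 and HOXB13 each had 0 reads in both 769-P libraries, while in CAKI-1 HOXB5 had 261 and 228 normalised reads, HOXB2 had 1614 and 1962 and HOXB9 had 4809 and 4828. HOXB9 was at least 1931-fold, HOXB2 at least 717-fold, HOXB7 at least 482-fold and HOXB13 at least 168-fold higher in CAKI-1. Without BCAA, HOXB9 had 12 and 24 reads in 769-P and was 224-fold higher in CAKI-1. These genes lie on chromosome 17 between 48540894 and 48729178 (GRCh38, GENCODE 29). Just past HOXB13, TTLL6, a tubulin glutamylase, had 3 and 3 reads in 769-P and 98 and 129 in CAKI-1. The next gene, the autophagy receptor CALCOCO2, was not called, with a log2 difference of -0.59.

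The other HOX clusters held genes read in both lines. HOXA9 had 933 and 1064 normalised reads in 769-P and 1682 and 1526 in CAKI-1, a log2 difference of -0.68 that was under 2-fold. HOXC9 and HOXD8 differed by -0.49 and 0.25 on the log2 scale and were not called. HOXA11, a gene of the developing kidney and limb, was at 0 reads in 769-P and at 633 and 494 normalised reads in CAKI-1, and HOXA13, at the end of the cluster, was 60.6-fold higher in CAKI-1. Strand was not stated for the counting, so reads from HOX genes and their antisense transcripts could not be separated.

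**Figure D3:**
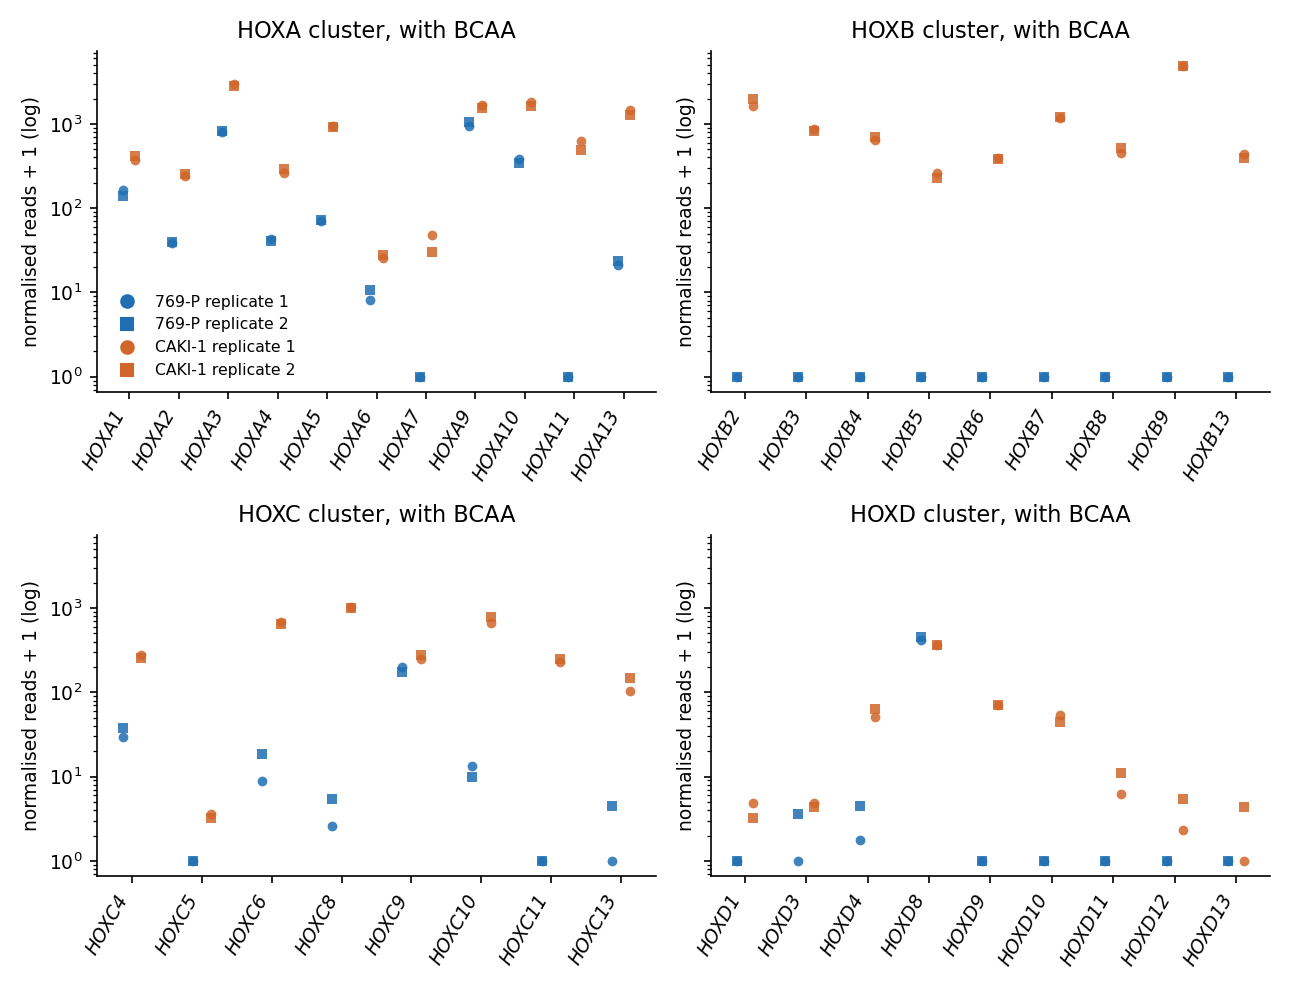
Normalised reads plus 1 (log scale) of HOX genes in order along each of the 4 clusters, in each library with BCAA, coloured by line. All 769-P points of HOXB2 to HOXB9 and HOXB13 lie at 0 reads, whereas HOXA9, HOXC9 and HOXD8 are within 2-fold in both lines.

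The genes with the largest differences toward 769-P had varied roles. TNS1, a tensin of focal adhesions, had 14554 and 11824 normalised reads in 769-P and 0 reads in CAKI-1, at least 3640-fold higher. ID4, an inhibitor of basic helix-loop-helix factors, had 8324 and 8930 against 0 (at least 2381-fold). EPHA7, an ephrin receptor, had 32722 and 31560 against 10.4 and 2.24 (5296-fold). The sulfotransferase SULT1B1, the guidance ligand SLIT3, UGT1A9, a glucuronosyltransferase of kidney and liver, and the tetraspanin TSPAN18 were each at 0 reads in CAKI-1 and at least 1660-fold, 1459-fold, 1378-fold and 990-fold higher in 769-P. UGT1A9 shares exons with other UGT1A genes, so its reads may be split among them. TNS1, ID4, SULT1B1, SLIT3, UGT1A9 and TSPAN18 were not listed for CAKI-1, so their 0 reads there were assumed.

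Further genes on the 769-P side had little or no signal in CAKI-1. The potassium channel KCNJ15 and CHDH, the mitochondrial choline dehydrogenase, were at 0 reads in CAKI-1 and at least 660-fold and 579-fold higher in 769-P. USH1C, the microvillus scaffold harmonin, had 1 read in each CAKI-1 library and 5844 and 5694 in 769-P, a ratio of normalised reads of 3992 with a 95% counting interval of 1105 to 32961. The synaptic adhesion protein LRFN4 and the zinc transporter TMEM163 had 2 reads or fewer per CAKI-1 library. RELN, a secreted guidance protein, was 1646-fold higher. Such intervals and the floors cover counting error only.

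The genes with the largest differences toward CAKI-1 were varied as well. CXCL6, a neutrophil chemokine, had 0 reads in 769-P and 123740 and 153680 normalised reads in CAKI-1, at least 55588-fold higher. GSTP1, a glutathione transferase, had 0 reads in 769-P and 68436 and 68223 normalised reads in CAKI-1 (at least 27383-fold). Its neighbours on chromosome 11, CDK2AP2 and the complex I subunit NDUFV1, were read in all 4 libraries and not called. CXCL6 and GSTP1 were not listed for 769-P, so their 0 reads there were assumed. SRGN, the granule proteoglycan serglycin, had 1 and 0 reads against 17999 and 22984, a ratio of 59177 with a 95% counting interval of 10621 to 2337382. PLAC8, the hyaluronan receptor LAYN, the hydrolase CMBL, the actin regulator RFLNA, the minor fibrillar collagen COL11A1 and the matrix protein MXRA5 were at 0 reads in 769-P, with bounds between 1319-fold (MXRA5) and 1979-fold (PLAC8). Among them only COL11A1 was listed for 769-P. SCRN1, RAB34, BMP5 and CYBRD1, a ferric reductase, had 3 reads or fewer in each 769-P library. In all, 133 genes had at least 100 normalised reads in each 769-P library and 3 reads or fewer in each CAKI-1 library, and 205 genes the reverse. Without BCAA, 79 and 155 of them again met this rule.

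VHL and both HIF alpha subunits were lower in 769-P. VHL had 19 and 4 reads in 769-P and 2619 and 2976 in CAKI-1, a log2 difference of -8.63 ± 0.55 SE (limma, Benjamini-Hochberg adjusted p = 4.58e-05). VHL lies on chromosome 3 between 10141008 and 10152220 (GRCh38, GENCODE 29). Its neighbours on either side, the actin regulator BRK1 and the signalling kinase IRAK2, were not called, with log2 differences of 0.13 and -0.48. HIF1A had 289 and 259 normalised reads in 769-P and 2921 and 3292 in CAKI-1 (11.3-fold), and EPAS1, which encodes HIF-2α, had 852 and 848 against 3055 and 3946 (4.08-fold). ARNT2, a partner of both, was 44.7-fold higher in CAKI-1. Of 9 tested HIF regulators, 4 were higher in CAKI-1, 0 in 769-P and 5 in neither. Over all genes tested, 17.3% were higher in CAKI-1 and 15.5% in 769-P.

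HIF target genes had no common direction. Of 35 tested, 5 were higher in 769-P, 11 in CAKI-1 and 19 in neither, with a median log2 difference of -0.52. Over all genes tested, 15.5% were higher in 769-P and 17.3% in CAKI-1. The carbonic anhydrase CA12 had 17177 and 17545 normalised reads in 769-P and 580 and 740 in CAKI-1 (26.5-fold), and the EGFR ligand TGFA was 7.47-fold higher in 769-P. NDUFA4L2, a mitochondrial protein induced in ccRCC, had 0.783 and 2.64 normalised reads in 769-P and 118 and 140 in CAKI-1. The neuronal-type glucose transporter SLC2A3 and the glycoprotein hormone STC1 (8.53-fold) were also higher in CAKI-1. VEGFA, the main angiogenic factor, was not called (log2 difference 0.31), and SLC2A1, the main glucose transporter, overlapped between the lines with 4152 and 3683 against 3801 and 3863 normalised reads.

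Among 25 tumour suppressors of renal carcinoma, 2 were higher in 769-P, 5 in CAKI-1 and 18 in neither, beside 15.5% and 17.3% of all genes tested. CDKN2B, a cyclin-dependent kinase inhibitor, had 904 and 895 normalised reads in 769-P and 0 reads in CAKI-1, at least 248-fold higher. CDKN2A, the adjoining inhibitor gene on chromosome 9, had 32.9 and 35.2 against 0 reads. Their flanking genes ran the other way, with MTAP, an enzyme of methionine salvage, at 1506 and 1438 against 5034 and 4999 (3.41-fold higher in CAKI-1) and DMRTA1 8.17-fold higher in CAKI-1. The 3 chromatin genes that lie with VHL on the short arm of chromosome 3, PBRM1, BAP1 and SETD2, had log2 differences of -0.56, -0.69 and -0.56 and were not called at 2-fold. RASSF1, on the same arm, was 3.29-fold higher in CAKI-1.

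Cytokine genes showed separate repertoires. Of 45 tested, 25 were higher in CAKI-1, 10 in 769-P and 10 in neither (median log2 difference -1.9). The neutrophil chemokines of chromosome 4 (73740506 to 74099293, GRCh38) shared a direction. CXCL8 had 2396 and 2073 normalised reads in 769-P and 33032 and 51917 in CAKI-1, CXCL1 had 49.3 and 46.7 against 51886 and 66469, and CXCL5 had 6.26 and 2.64 against 24514 and 30170. With CXCL2 (40.2-fold), CXCL3 (53.6-fold) and CXCL6, all 6 members tested were higher in CAKI-1. RASSF6, the gene next to this run, was 14.4-fold higher in 769-P. The inflammatory cytokine IL6 was 1202-fold, TGFB2 1475-fold, the activin subunit INHBA 24.6-fold and the macrophage factor CSF1 14.4-fold higher in CAKI-1. CXCL12, the ligand of CXCR4, had 3359 and 3582 normalised reads in 769-P and 0 reads in CAKI-1, at least 958-fold higher. The EGFR ligand AREG (78.9-fold) and the death ligand TNFSF10 (12.8-fold) were also higher in 769-P.

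Of 30 tested receptor tyrosine kinases, 6 were higher in 769-P, 13 in CAKI-1 and 11 in neither. The shares of all genes tested were 15.5% in 769-P and 17.3% in CAKI-1. FGFR4 had 17002 and 16849 normalised reads in 769-P and 2456 and 2647 in CAKI-1 (6.64-fold), and FGFR3 (13.6-fold) and ERBB3 (16.8-fold) went the same way. PDGFRB, the receptor of stromal cells, was 11.7-fold higher in CAKI-1, and AXL 2.06-fold, which fell under 2-fold when libraries were scaled by their totals. MET (log2 difference 0.18) and EGFR (0.37), 2 receptors targeted in carcinoma, were not called. Collagens, laminins and integrins split 13 to 15, with 15 in neither. The epithelial basement membrane chain LAMA5 (151-fold) and the integrins ITGA6 (9.33-fold) and ITGB8 (10.1-fold) were higher in 769-P, and ITGA4 (159-fold) and COL6A3 (8.06-fold) in CAKI-1.

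Among matrix proteases and inhibitors, 6 of 23 tested were higher in 769-P and 10 in CAKI-1. The shares of all genes tested were 15.5% and 17.3%. MMP2, a gelatinase, had 942 and 829 normalised reads in 769-P and 29625 and 28022 in CAKI-1 (32.6-fold). MMP1, a collagenase, had 552 and 448 against 0 and 1.12, and the inhibitor TIMP3 had 211 and 205 against 0 reads (at least 57.5-fold). ADAMTS12 had 1 read in each 769-P library and 2996 and 3945 in CAKI-1. Interferon response genes had no common direction, with 6 of 29 higher in 769-P, 10 in CAKI-1 and 13 in neither. OAS2 had 6.26 and 0.881 against 797 and 782 normalised reads while its paralog OAS3 was 3.92-fold higher in 769-P. The antigen presentation chaperone CD74 was 40.8-fold higher in CAKI-1, and B2M was not called.

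BCAA catabolism, the pathway the study is about, differed at a few steps. Of 34 tested genes of the study's list, 7 were higher in 769-P, 4 in CAKI-1 and 23 in neither, with a median log2 difference of 0.11. Of all genes tested, 15.5% and 17.3% were called in these directions, so the total of 11 called was close to the combined share of all genes. BCAT1, the cytosolic transaminase that starts BCAA breakdown, had 562 and 562 normalised reads in 769-P and 23086 and 22176 in CAKI-1, 40.2-fold higher in CAKI-1 (log2 difference -5.33 ± 0.05 SE, limma, Benjamini-Hochberg adjusted p = 3.81e-07). Its mitochondrial counterpart BCAT2 differed by -0.86 and was not called, nor were BCKDHB (0.55) and DBT (-0.53), subunits of the branched-chain ketoacid dehydrogenase. Later enzymes went both ways, and most were not called, among them IVD (-0.02), ECHS1 (-0.12) and PCCB (-0.08). ACADM was 2.85-fold, HADH 2.72-fold, PCCA 2.56-fold and ALDH2 2.35-fold higher in 769-P, as were ALDH3A2 and ALDH9A1 with log2 differences of 1.37 and 1.06. ABAT was 5.49-fold higher in 769-P, a call that was lost when either 769-P library was left out. On the CAKI-1 side, besides BCAT1, ACAA2, a thiolase, was 2.88-fold higher, and ACADSB and ALDH6A1 each had a log2 difference of -1.02. Of the 11 called genes of this list, 7 had the same call without BCAA.

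Of 9 tested regulators and transporters of BCAA, 1 was higher in 769-P, 4 in CAKI-1 and 4 in neither (median log2 difference -0.36). The shares of all genes tested were 15.5% and 17.3%. Of the 5 called, 3 had the same call without BCAA. PPARGC1A, the coactivator of mitochondrial biogenesis, had 2509 and 2631 normalised reads in 769-P and 15.6 and 22.4 in CAKI-1 (131-fold). PPM1K, the phosphatase that activates the ketoacid dehydrogenase, was 5.05-fold higher in CAKI-1, and its opponent, the kinase BCKDK, was not called (0.84). The leucine transporter SLC7A5 had 5763 and 5227 against 32488 and 28936 (5.59-fold) and its heavy chain SLC3A2 had 6551 and 6199 against 14167 and 14993 (2.29-fold). In glycolysis 2 of 11 tested genes were higher in each line and 7 in neither, again close to the share of all genes. ALDOA (2.81-fold) and ENO2 (3.76-fold) were higher in 769-P and PGAM1 (2.3-fold) in CAKI-1.

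Of 27 tested NOTCH pathway genes, 7 were higher in 769-P, 2 in CAKI-1 and 18 in neither (median log2 difference 0.26), beside 15.5% and 17.3% of all genes tested. The total of 9 called was close to the combined share of all genes, with more of them on the 769-P side. HES1, a direct NOTCH target and repressor, had 1282 and 1405 normalised reads in 769-P and 71.3 and 92.9 in CAKI-1 (16.3-fold). The ligand JAG1 had 22185 and 20783 against 7979 and 7130 (2.85-fold), and the receptor NOTCH1 had 5561 and 4702 against 2599 and 2366 (2.06-fold), a log2 difference of 1.04 that was 0.94 without 769-P replicate 1 and 0.97 without CAKI-1 replicate 2. The fringe glycosyltransferases, which tune the choice of ligand, went opposite ways, MFNG 15.7-fold higher in 769-P and RFNG 2.38-fold higher in CAKI-1. The coactivator MAML3 had 174 and 164 reads against 1 and 0, and the inhibitory ligand DLL3 was 4.68-fold higher in CAKI-1.

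Of 11 histone deacetylases, all tested, 2 were higher in 769-P, 2 in CAKI-1 and 7 in neither, again close to the share of all genes. HDAC7, the deacetylase the study follows, had 3606 and 3362 normalised reads in 769-P and 5706 and 5344 in CAKI-1, 1.59-fold higher in CAKI-1 and under the 2-fold minimum (log2 difference -0.67 ± 0.06 SE, limma, Benjamini-Hochberg adjusted p = 2.25e-04). The libraries of the lines did not overlap for HDAC7, as for 85.3% of all tested genes. HDAC5, of the same class, was 4.44-fold higher in CAKI-1 and HDAC4 2.1-fold higher in 769-P, the latter with a log2 difference of 0.99 without CAKI-1 replicate 2.

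The line difference also varied along the genome. The median log2 difference per autosome ran from -0.37 on chromosome 17 and -0.29 on chromosomes 3 and 21 to 0.51 on chromosome 18, 0.52 on chromosome 16 and 0.73 on chromosome 22. Of 309 windows of 50 neighbouring tested genes, 26 had a median of 0.5 or more and 22 of -0.5 or less. The lowest, -1.24, was chr17:76000906-79088599, where 26 genes were higher in CAKI-1 and 3 in 769-P, and the highest, 1.14, was chr16:1576716-2709030. On chromosome 3 the windows between 23891660 and 55490539 had medians from -1.19 to -0.69, a stretch that holds BAP1, SETD2, PBRM1 and RASSF1. All 7 windows of chromosome 22 had medians above 0.5, from 0.51 to 0.93. The same medians without BCAA were -1.09 in the lowest window and 0.73 over chromosome 22. DNA copy number was not measured in these files, and its part was not tested. In the histocompatibility region of chromosome 6 (28 to 34 Mb) 59 of 200 protein-coding genes (29.5%) were listed, against 78.4% of all protein-coding genes, so that region was covered only in part.

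**Figure D4:**
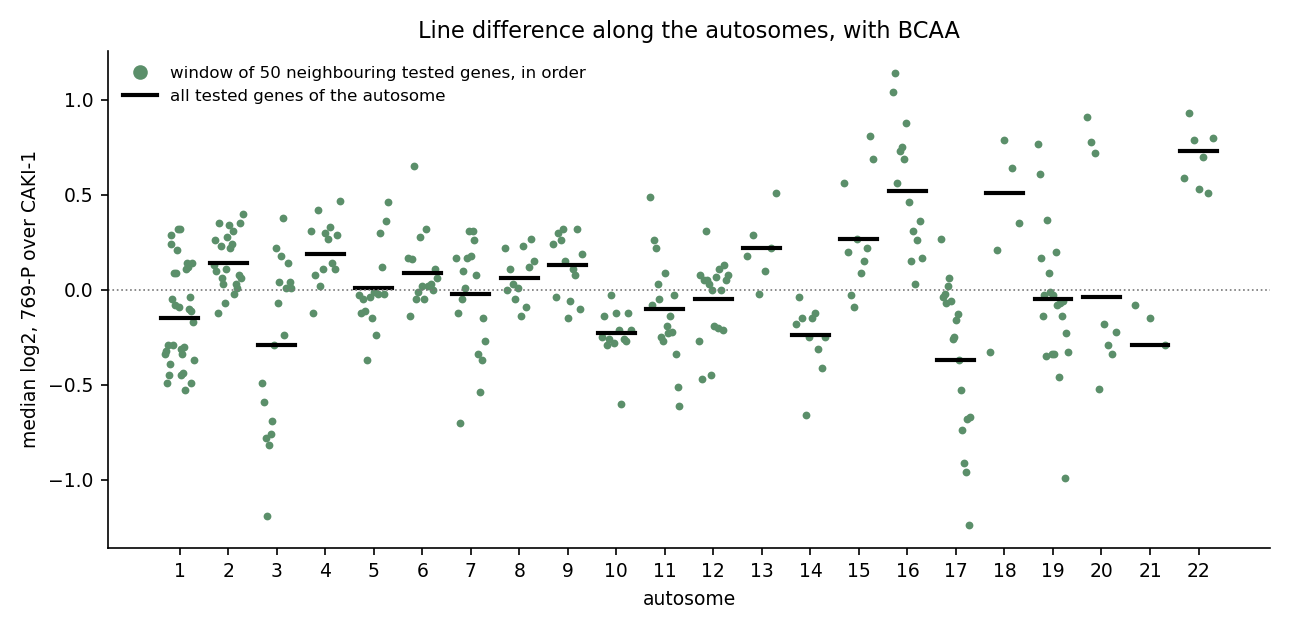
The vertical axis is the median log2 difference with BCAA, 769-P over CAKI-1, along autosomes 1 to 22. Green points are windows of 50 neighbouring tested genes and black bars the medians of each autosome. Chromosome 22 lies above 0 in all windows, and parts of chromosomes 3 and 17 reach -1.19 and -1.24.

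Most line differences were also called without BCAA. Of 5052 genes called with BCAA and tested in both media, 4051 (80.2%) had the same call without BCAA and 12 were called the other way. Without BCAA, 15.5% of the tested genes (2482) were higher in 769-P and 17.5% (2809) in CAKI-1. Across 15824 genes the log2 difference with BCAA and that without had a Pearson correlation of 0.952, a description across genes that are not independent replicates, within the same 2 lines. The change in the line difference itself was tested by the interaction of line and medium. By limma with Benjamini-Hochberg adjustment, 4006 of 16355 genes (24.5%) had an adjusted p below 0.05, of which 2162 shifted toward 769-P with BCAA and 1844 toward CAKI-1. The median absolute change was 0.31 on the log2 scale.

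Several genes named here were among those that shifted. SLC7A5 was 5.59-fold higher in CAKI-1 with BCAA, while without BCAA it had 27200 and 28199 normalised reads in 769-P and 16416 and 16643 in CAKI-1, a change in the log2 difference of -3.23 (limma, Benjamini-Hochberg adjusted p = 1.1e-06). EPAS1 was 4.08-fold higher in CAKI-1 with BCAA, and without BCAA it had 5536 and 5850 in 769-P and 3990 and 4333 in CAKI-1. The line difference of BCAT1 went from -5.33 with BCAA to -2.65 without, and that of VEGFA from 0.31 to 3.11. SNAI1 differed by -1.80 with BCAA and -3.38 without. CXCL12 differed more with BCAA, since 769-P had 112 and 95.3 normalised reads without BCAA against 3359 and 3582 with it.

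**Figure D5:**
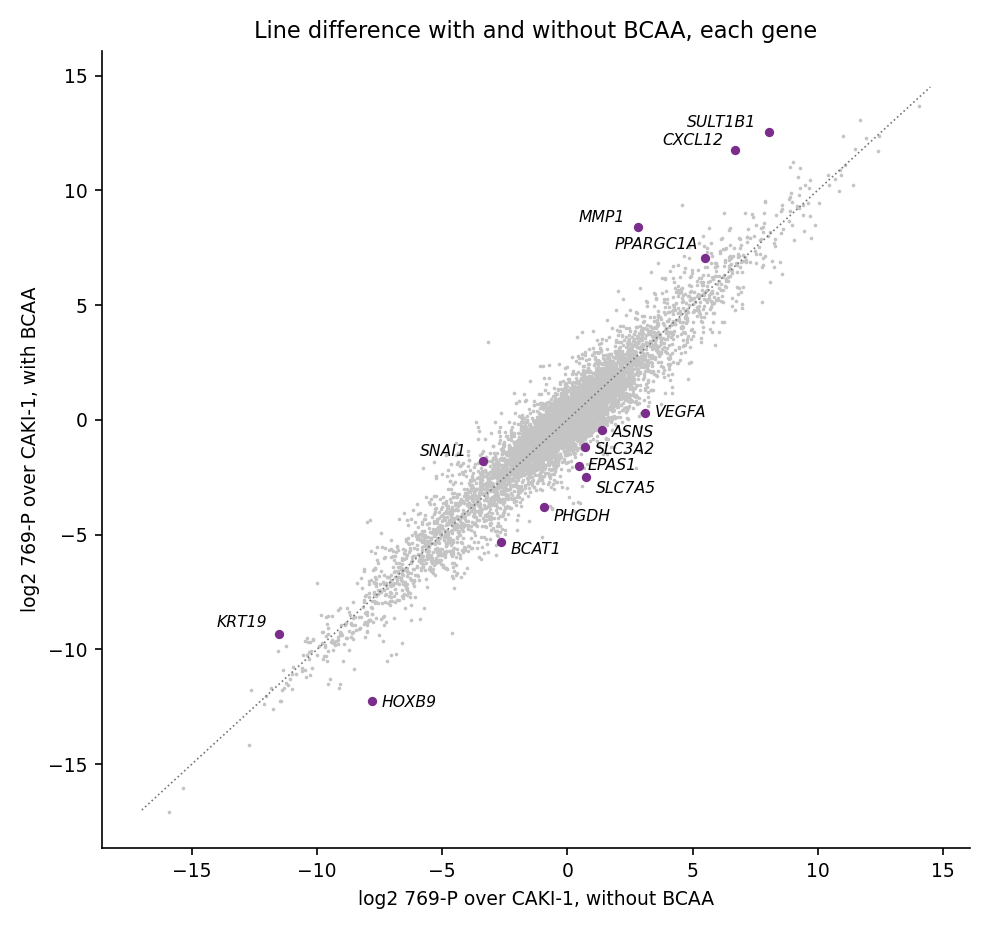
Each point is a gene, with the log2 difference 769-P over CAKI-1 without BCAA on the horizontal axis and with BCAA on the vertical axis. The dotted line marks equal differences and 14 genes are named. SLC7A5, VEGFA and BCAT1 lie below the line, and CXCL12, SULT1B1 and MMP1 lie above it.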

How the data were processed

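Bulk RNA-seq of total RNA was deposited as 1 table per line, with 25431 genes for 769-P and 24190 for CAKI-1. The deposited values were signal: the authors divided the reads of each gene by 1 size factor per library, set within each table, and 100.0% of the values were whole multiples of the value of 1 read (tolerance 0.01 reads). The submitters' processing notes name Trim Galore, TopHat2 2.1.0, SAMtools 1.3.1, HTSeq 0.6.0, DESeq and DESeq2 and build hg38. Annotation and strand setting were not given in the sources used here.

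Reads were recovered and the tables joined on Ensembl ID. A gene absent from a table was taken as 0 reads, which concerned 3586 genes listed for 769-P only and 2345 for CAKI-1 only. The 4 libraries were scaled together by median-of-ratios (size factors 0.771 to 1.278). Genes with a mean of at least 10 normalised reads were tested in limma 3.58.1 (R 4.3.3) on log2(normalised reads + 1) with Benjamini-Hochberg adjustment. Calls needed an adjusted p below 0.05 and a 2-fold difference. The interaction of line and BCAA was fitted over the 8 libraries scaled together. The scripts were tested on simulated data. Symbols and positions came from GENCODE 29 (27309 IDs matched).

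Alternatives were edgeR 4.0.16, DESeq2 1.42.0 and voom on the recovered reads, other scalings, filters and pseudocounts, a replicate block and leaving out each library. The count tests took the recovered reads in place of deposited counts. Libraries with the same replicate number did not deviate together (correlation 0.00649 with BCAA and -0.0281 without), so the numbers were not taken as pairs. Replicates differed by more than sampling noise (chi-square per degree of freedom 7.74 in 769-P and 11.9 in CAKI-1).

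The genes named were the 15 protein-coding genes with the largest difference in each direction among called genes with a mean of at least 500 in the higher line, the 10 most abundant genes read in 1 line only, list members with the largest difference, the highest mean or a defining role, and genes the study follows. Genes next to VHL, CDKN2A, HOXB, CXCL and GSTP1, and the genes that changed sides with BCAA were chosen after their values were seen. Members and lists were chosen with earlier results of these data known. Sex-linked and histocompatibility genes were left out, and a few other genes that met these rules are not reported here.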

Additional observations from a re-analysis of the deposited data

Results flagged for a closer look

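For 193 of the named genes the change of the line difference between media was tested by the interaction of line and BCAA (limma, Benjamini-Hochberg). An adjusted p below 0.05 was reached by 87 (against 24.5% of all genes tested), and 44 of them changed by at least 1 on the log2 scale. The named genes were chosen for large differences, so this share is no finding about them. Each value given here is the log2 difference 769-P over CAKI-1 with BCAA minus that without. A negative value means that the difference moved toward CAKI-1 when BCAA were present. The 8 libraries were scaled together for these values, so they can differ from a subtraction of the separate log2 differences. What flagged these genes was this difference between media.

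Some genes of amino acid supply moved toward CAKI-1, namely the leucine transporter pair SLC7A5 (-3.23) and SLC3A2 (-1.92), the cystine transporter SLC7A11 (-2.06), the serine pathway enzymes PHGDH (-2.87) and PSAT1 (-1.97), asparagine synthetase ASNS (-1.85) and the transaminase BCAT1 (-2.68). So did EPAS1 (-2.49), which encodes HIF-2α, and some HIF target genes. These were VEGFA (-2.81), ADM (-2.48), SLC2A1 (-2.39), SLC2A3 (-2.66), EGLN3 (-1.7) and HK2 (-1.47). All were picked by their shift, and whether their gene lists as a whole moved was not tested. Among cytokines and other secreted or stress-related genes the values were IL6 (-3.16), CXCL2 (-1.62), CXCL3 (-1.59), CXCL8 (-1.16), SRGN (-1.15) and SOD2 (-1.1). Transcription factors and matrix genes that moved the same way were HOXB9 (-4.19), GATA3 (-1.4), ELF3 (-1.2), SNAI2 (-2.52), ZEB2 (-1.79), COL5A1 (-3.28) and COL11A1 (-2.24), with the fringe enzyme MFNG (-1.81) and the transporter SLC17A3 (-1.26).

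Toward 769-P with BCAA moved the collagenase MMP1 (5.36), the chemokine CXCL12 (4.59), the sulfotransferase SULT1B1 (4.01) and the keratin KRT19 (2.28). Metabolic genes in this direction were CHDH (1.65), PPARGC1A (1.52), HADH (1.14) and MIOX (1.01). The others were COL6A3 (1.64), SNAI1 (1.59), TNFSF10 (1.48), PDGFRB (1.3), MECOM (1.18), MMP2 (1.17) and HOXA13 (1.02). For genes at or near 0 reads in 1 line, such as HOXB9, COL11A1, SRGN, SULT1B1, CXCL12, CHDH and MMP1, these values depend on the pseudocount. CXCL12, SULT1B1 and CHDH had 0 reads in CAKI-1 in both media, so their values reflect the change within 769-P. The cause of these changes was not tested.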

How the results depend on the processing

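Of the 5431 genes called with BCAA, 0 were called the other way under any alternative in which the calls were compared. The counts of 2567 genes higher in 769-P and 2864 higher in CAKI-1 became 1535 and 1756 with a mean of at least 100 normalised reads, 5717 and 5870 with no fold minimum, and 741 and 1150 at 8-fold. Without BCAA, 2482 and 2809 became 1408 and 1708, 5726 and 6052, and 657 and 1081 under the same settings. The tools gave 2561 and 2904 (edgeR), 2403 and 2760 (DESeq2) and 2573 and 2919 (voom). Leaving out a library gave 2112 to 2629 and 2504 to 2779. With the replicate block the counts were 2600 and 2888 with BCAA, 2522 and 2841 without, and 2802 for the interaction, and it changed no call of a named gene. The interaction count of 4006 ranged from 2586 to 3774 when a library was left out, at 2586 without 769-P replicate 2 with BCAA and 2642 without 769-P replicate 1 without BCAA, and was 859 when a change of at least 1 was also asked. The 338 genes read in 1 line only were 203 at a floor of 0 reads, 506 at a floor of 10, 493 at a level of 50 normalised reads and 127 at a level of 500, and the 205 of them read in CAKI-1 became 120, 313, 310 and 85. Over 194 named genes, 3037 of 3051 values kept their call, and 10 lost it, all in SCNN1A, ABAT, NOTCH1, HES4, HDAC4 and AXL. With only genes listed in both tables, 159 of the 194 had a value, and these kept their call. The spread of autosome medians was 1.1, and 1.07 to 1.1 under its alternatives. Library totals shifted the median of all genes most, to 0.073. Replicates were 2 per group, and depth limits what can be said of genes under 10 normalised reads.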

Other observations

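Of 56 tested genes linked to ccRCC metabolism, 11 were higher in 769-P, 13 in CAKI-1 and 32 in neither (median log2 difference 0.1), beside 15.5% and 17.3% of all genes tested. Glutamine synthetase, GLUL, had 474 and 483 normalised reads in 769-P and 0 reads in CAKI-1, at least 132-fold higher. ASS1, the argininosuccinate synthase often low in ccRCC, was 19.6-fold higher in 769-P, and the efflux pump ABCC2 had 18729 and 17766 against 62.2 and 48.1 (327-fold). The serine pathway enzyme PHGDH was 14.1-fold and the nicotinamide methyltransferase NNMT 17.7-fold higher in CAKI-1. Of 31 cancer-testis genes 7 were listed and 3 tested, with 1 called in each direction.

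The 12 genes called in opposite directions with and without BCAA included the endothelin genes. EDN2 had 204 and 174 normalised reads in 769-P and 771 and 799 in CAKI-1 with BCAA, and 1314 and 1368 against 400 and 350 without. EDN1 went the same way, with log2 differences of -1.51 with BCAA and 1.59 without. DDIT4, a stress-induced inhibitor of mTORC1 signalling, differed by -1.36 with BCAA and 1.43 without. In SIGLEC15, a sialic acid-binding receptor, the order was the reverse, with 2174 and 1916 normalised reads in 769-P and 314 and 500 in CAKI-1 with BCAA and 408 and 465 against 923 and 966 without.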
